A study of Mus musculus with 6 samples.

Results

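The connexin genes Gjb2, Gjb6, Gja1, Gjc1 and Gjc3 were followed in RNA from the mouse cochlear duct. They were chosen by name and make up 5 of the 14865 genes with a deposited value. RNA was sequenced at postnatal day 8 (P8) from mice labelled C57BL/6 in 6 libraries, 3 of Gfi1+/+ and 3 of Gfi1cre/+. In the Gfi1cre allele the coding sequence for Cre recombinase takes the place of part of Gfi1, a transcription factor gene needed by hair cells. Gfi1cre/+ mice thus keep a single intact copy and express Cre where Gfi1 is active. The paper found recombination by Cre in hair cells and in immune cells, mainly macrophages. For the immune cells it states that the allele was active at some point of their development, not necessarily when the tissue was studied. Each Gfi1+/+ library held the 2 cochleae of 1 mouse, whereas each Gfi1cre/+ library pooled 6 cochleae of 3 mice. Values are normalized reads, that is, the reads of a gene scaled by 1 factor for each library.

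Connexins are membrane proteins that assemble in rings to form hemichannels, and hemichannels of neighbouring cells dock to form gap junction channels that pass ions and small metabolites. In the cochlea an epithelial network joins the supporting cells around the hair cells, and a connective tissue network joins the fibrocytes of the spiral ligament with cells of the stria vascularis. Both networks are thought to return potassium from the hair cells to the endolymph. Hair cells themselves are generally regarded as lacking gap junctions, and loss of Gjb2 is the best known cause of recessive hereditary deafness in people.

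Gjb2 (ENSMUSG00000046352) and Gjb6 (ENSMUSG00000040055), which encode the principal connexins of both cochlear networks, are neighbours on chromosome 14 and are read from the same strand. Gjb2 lies at chr14:57098600-57104702 and Gjb6 at chr14:57123303-57133611 on the minus strand of GRCm38 (mm10), with 18600 bases between them and 28909 bases between their start sites. The 250 bases before each start are shown, from RefSeq on GRCm38.p6, because the genes are neighbours and the most abundant of the 5. Each is written 5′ to 3′ on the minus strand, from chr14:57104703-57104952 for Gjb2 and chr14:57133612-57133861 for Gjb6, and capitals mark matches to the GC box in either orientation (GGGCGG or CCGCCC).
Gjb2: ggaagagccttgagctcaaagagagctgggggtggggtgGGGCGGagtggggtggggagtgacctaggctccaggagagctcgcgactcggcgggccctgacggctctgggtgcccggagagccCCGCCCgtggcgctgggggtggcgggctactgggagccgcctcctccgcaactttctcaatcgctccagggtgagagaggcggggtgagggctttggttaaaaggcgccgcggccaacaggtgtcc
Gjb6: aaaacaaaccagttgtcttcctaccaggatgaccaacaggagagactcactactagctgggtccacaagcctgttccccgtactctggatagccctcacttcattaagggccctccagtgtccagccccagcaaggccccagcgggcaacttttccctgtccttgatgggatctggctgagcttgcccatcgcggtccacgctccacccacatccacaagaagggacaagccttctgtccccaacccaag
The Gjb2 window held 2 GC boxes, whose leftmost bases lie at -211 and -126 relative to the start, and was 69.2% G and C, above 89.6% of all windows. The Gjb6 window was 56.8% G and C and held none of the motifs searched. Those were the GC box, the TATA box (TATAAA or TTTATA) and the CCAAT box (CCAAT or ATTGG), which were present in 32.7%, 12.4% and 33.8% of 32851 RefSeq windows of this length. None of these letter strings overlapped another in the windows of Gjb2, Gjb6, Gja1 and Gjc3. The Gja1 window (50% G and C) held none of the 3 motifs, and the Gjc3 window (48.8% G and C) held 1 CCAAT box at -85. No window was analysed for Gjc1.

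The coding sequences of the 5 genes were compared to see whether reads could be credited to the wrong member. Connexin genes are known for having their coding sequence in a single exon, and this held in the GENCODE annotation for 4 of the 5, with Gjc3 carrying 2 coding exons. Without the stop codon, coding length was 678 bases for Gjb2, 783 for Gjb6, 1146 for Gja1, 1188 for Gjc1 and 807 for Gjc3. Gjb2 and Gjb6 were the most alike pair, with 519 identical bases of 677 aligned (76.7%), and the other 9 pairs ran from 59.4% to 72.8%. The longest run of coding bases that Gjb2 and Gjb6 share is shown because it bounds how far a read could match both.
Gjb2 and Gjb6 shared run: tctcacatccggctctgggc
This run of 20 bases starts at coding position 214 in both genes, counted from the A of the ATG, and no other pair shared a coding run longer than 17 bases. No stretch of 50 bases of the Gjb2, Gjb6 or Gja1 transcript occurred in a transcript of another gene. Gjc1 had 2 such stretches of 2265 (0.0883%) and Gjc3 had 148 of 3953 (3.74%), so a small part of the Gjc3 transcript was not unique at that length. The paper reports paired reads longer than these stretches, and whether any Gjc3 reads were lost or shared was not tested.

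Gjb2 was among the most abundant transcripts of the cochlear duct, ranking 42 of 14865 genes by mean normalized reads. Its values in replicates 1, 2 and 3 were 22390, 22921 and 28182 normalized reads for Gfi1+/+, beside 26017, 24939 and 26088 for Gfi1cre/+. Values of the other genes follow the same order. The highest and both of the lowest values belonged to Gfi1+/+ libraries, and the Gfi1cre/+ libraries lay between them. The means were 24498 ± 3202 and 25682 ± 644 normalized reads (SD, n = 3 each). Counting error at these read numbers was 0.578% to 0.742%, against a spread between libraries of 13.1% in Gfi1+/+ and 2.51% in Gfi1cre/+. A smaller spread in Gfi1cre/+ was not particular to the connexins. Over all genes tested, the median SD of log2(value + 1) was 0.119 in Gfi1+/+ and 0.0737 in Gfi1cre/+.

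Gjb6 ranked 190 by the same measure. It was counted at 8028, 7414 and 8666 normalized reads in Gfi1+/+ and at 8760, 8101 and 8338 in Gfi1cre/+, with means of 8036 ± 626 and 8400 ± 334 (SD, n = 3 each). Gfi1+/+ replicate 2 was lowest and Gfi1cre/+ replicate 1 highest, and the genotypes overlapped. Its spread was 7.79% in Gfi1+/+ and 3.97% in Gfi1cre/+.

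Gja1 (ENSMUSG00000050953, chr10:56377330-56402513, plus strand) encodes the most widely expressed connexin of the body, known from heart, bone and astrocytes. Its values were 880, 758 and 894 normalized reads in Gfi1+/+ and 782, 881 and 825 in Gfi1cre/+, with means of 844 ± 74.97 and 829 ± 49.2 (SD, n = 3 each). Every Gfi1cre/+ value fell within the Gfi1+/+ range. The gene ranked 4850, and counting error was 3.18% to 3.75%.

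Gjc3 (ENSMUSG00000056966, chr5:137953461-137963098, minus strand) encodes a connexin known from myelinating glia. It was counted at 718, 938 and 776 normalized reads in Gfi1+/+ and at 771, 771 and 753 in Gfi1cre/+, with means of 811 ± 114 and 765 ± 10.3 (SD, n = 3 each). Gfi1+/+ replicate 2 stood above the other 5 libraries and Gfi1+/+ replicate 1 was lowest. The Gfi1cre/+ libraries spread by 1.35%, less than the counting error of 3.34% to 4.15%.

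Gjc1 (ENSMUSG00000034520, chr11:102799579-102819700, minus strand), whose connexin is known from vascular smooth muscle and the cardiac conduction system, was the least abundant of the 5 and ranked 9637. Its values were 232, 297 and 274 normalized reads in Gfi1+/+ and 234, 240 and 256 in Gfi1cre/+, with means of 268 ± 33.1 and 243 ± 11.2 (SD, n = 3 each). Gfi1+/+ replicate 1 was lowest and the other Gfi1+/+ libraries were highest. Counting error ran from 5.93% to 7.29%, and the Gfi1cre/+ spread of 4.61% was below it.

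**Figure D1:**
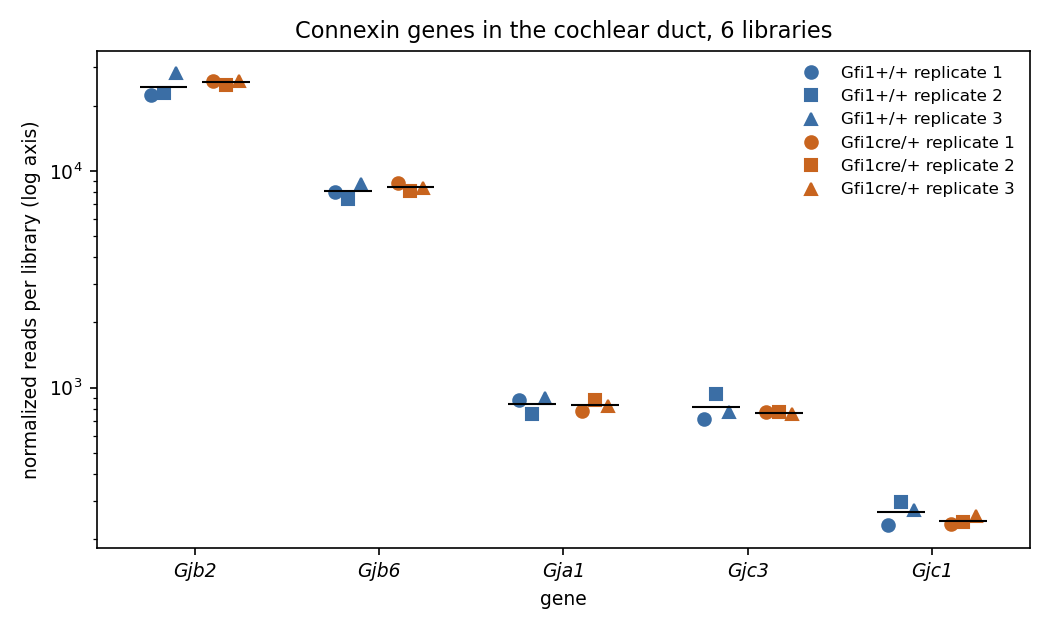
Normalized reads of the 5 connexin genes in each of the 6 libraries (log axis), with blue points for Gfi1+/+, orange points for Gfi1cre/+, marker shape for the replicate and a bar for the mean of 3 libraries. The genotypes overlap for each gene, and the points of Gjb2 and Gjb6 (7414 to 28182) lie far above those of Gja1, Gjc3 and Gjc1 (232 to 938).

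Longer transcripts collect more reads, so levels of different genes were compared per kilobase of the union of their exons. On this scale Gjb2 stood at 10182 ± 1331 normalized reads per kilobase in Gfi1+/+ and 10674 ± 268 in Gfi1cre/+ (SD, n = 3 each). Gjb6 stood at 3005 ± 234 and 3141 ± 125. The next 3 were lower by more than an order of magnitude, with Gjc3 at 186 ± 26.1 and 176 ± 2.37, Gja1 at 82.3 ± 7.31 and 80.8 ± 4.80, and Gjc1 at 53.5 ± 6.62 and 48.6 ± 2.24 normalized reads per kilobase.

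The order Gjb2, Gjb6, then the other 3 held under every length tried, whereas the place of Gja1 and Gjc3 did not. The union of Gja1 exons is 10257 bases long, but its longest transcript has 3889 bases and its longest protein-coding transcript 3182. Per kilobase of the longest transcript, Gja1 stood at 217 ± 19.3 and Gjc3 at 203 ± 28.5 in Gfi1+/+, which overlap within their SD. Per kilobase of the longest protein-coding transcript, a length added after the values had been seen, Gja1 stood at 265 ± 23.6 and Gjc3 at 203 ± 28.5. Gjc1 was the lowest of the 5 under each length, with 78.5 ± 9.70 and 116 ± 14.3 under the longest and the longest protein-coding transcript. Gja4, a connexin of arterial endothelium outside the 5, stood at 120 ± 21.1 per kilobase in Gfi1+/+ under each length. This was above Gja1 (82.3) and Gjc1 (53.5) with the union of exons and above Gjc1 with the longest transcript. With the longest protein-coding transcript it was close to Gjc1.

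**Figure D2:**
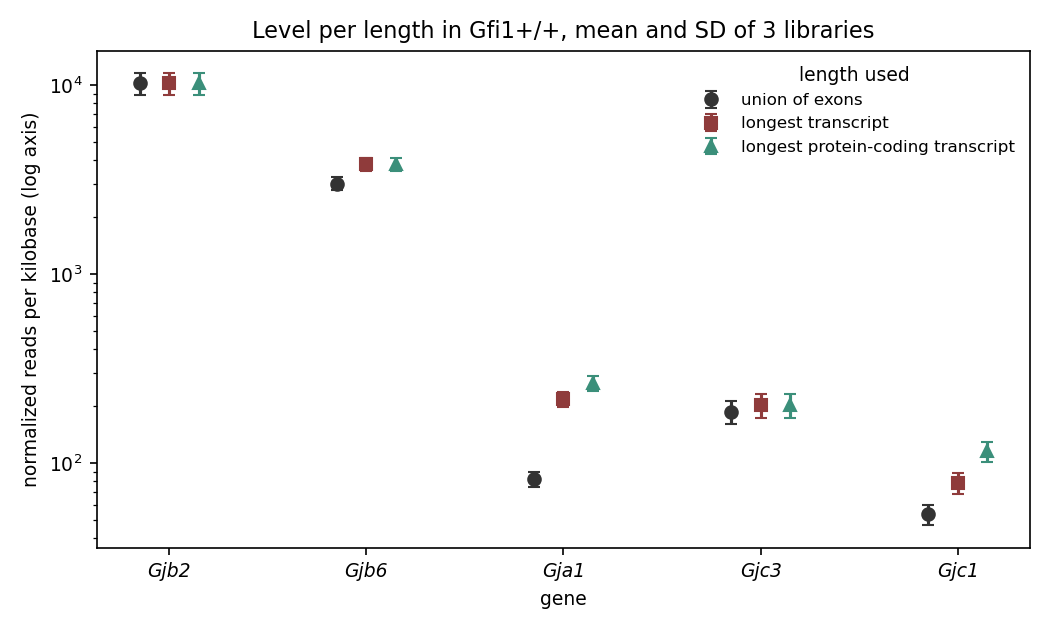
Mean normalized reads per kilobase (log axis) of the 5 connexin genes in the 3 Gfi1+/+ libraries, with SD bars, under 3 choices of gene length. Gjb2 (10182) and Gjb6 (3005 to 3818) keep their places, while Gja1 moves from 82.3 to 265 and passes Gjc3.

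Gjb2 alone made up between 72.4% and 75.8% of the summed reads per kilobase of the 9 listed connexin genes, over all 6 libraries. Together Gjb2 and Gjb6 made up between 95.8% and 96.8%, and between 94.2% and 95.5% with the longest protein-coding transcript as the length. The share of Gja1, Gjc1 and Gjc3 together was 2.06% to 2.72% with the union of exons and 3.44% to 4.35% with the longest protein-coding transcript, where that of Gjb2 alone was 66.8% to 70.6%. In bulk tissue these shares cannot separate a connexin used at a high level by few cells from one used at a low level by many.

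The comparison between genotypes asked whether a single intact Gfi1 copy goes with another level of connexin RNA. Gfi1 itself was counted at 147, 160 and 152 normalized reads in Gfi1+/+ and at 136, 130 and 139 in Gfi1cre/+. Its ranges did not overlap, but the log2 fold change of -0.18 (95% confidence interval -0.40 to 0.04) had an interval that covered 0 in limma. The deposited values give 1 number for the whole gene, so the replaced part cannot be read separately from them. Each fold change here is on the log2(value + 1) scale, and a negative sign means lower in Gfi1cre/+.

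None of the 5 connexins passed the test between the genotypes. Of the genes tested, 4 of 14455 (0.0277%) passed an adjusted p-value of 0.05 in limma with Benjamini-Hochberg adjustment, and 0 of the 5 connexins did, as also in edgeR and DESeq2. At an unadjusted p-value under 0.05 there were 439 genes (3.04%), of which 0 were among the 5. The ranges of the genotypes did not overlap in 1087 genes (7.52%), again with 0 of the 5. In bulk RNA, fewer cells of a type and less RNA per cell cannot be told apart, and this holds for each comparison here.

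For Gjb2 the log2 fold change was 0.08 (95% confidence interval -0.14 to 0.29), a ratio of 1.05 with an interval of 0.908 to 1.22. For Gjb6 it was 0.07 (-0.09 to 0.23), a ratio of 1.05 with an interval of 0.937 to 1.17. The remaining 3 genes leaned lower, with -0.02 for Gja1 (-0.20 to 0.16), -0.08 for Gjc3 (-0.28 to 0.13) and -0.13 for Gjc1 (-0.37 to 0.10). The adjusted p-value of each of the 5 was 0.999 (limma, Benjamini-Hochberg), and their unadjusted p-values ran from 0.231 for Gjc1 to 0.773 for Gja1. The median fold change of the 5 was -0.02, beside -0.00012 over all genes tested.

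The sign of the Gja1 and Gjc3 differences changed when single libraries were left out. Without Gfi1+/+ replicate 3, the library with the most Gjb2 RNA, the Gjb2 fold change rose from 0.08 to 0.18 (95% confidence interval 0.06 to 0.30) with an unadjusted p of 0.0076 and an adjusted p of 0.156 in limma. In that fit 2340 genes (16.2%) had an unadjusted p-value under 0.05 and 48 passed the adjusted threshold. Without Gfi1+/+ replicate 1, Gjc1 moved from -0.13 to -0.23 (-0.44 to -0.02) with an unadjusted p of 0.0347 and an adjusted p of 1 in limma, and the Gjb2 value fell to 0.01. Gjc3 turned to 0.03 without Gfi1+/+ replicate 2. Gja1 turned to 0.01 without Gfi1+/+ replicate 1 and to 0.02 without either Gfi1+/+ replicate 3 or Gfi1cre/+ replicate 1.

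The 4 genes that passed over all genes, Ddx3y, Eif2s3y, Kdm5d and Uty, all lie on the Y chromosome. Ddx3y was at 0 in the 3 Gfi1+/+ libraries and at 232, 289 and 485 normalized reads in the Gfi1cre/+ libraries. The sex of the animals and the genotype therefore cannot be told apart in these values.

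Ratios between connexins within a library do not depend on the size factor and were compared for all 10 pairs. The ratio of Gjb2 to Gjb6 reads had the smallest difference between the genotypes. It was 2.79, 3.09 and 3.25 in Gfi1+/+ and 2.97, 3.08 and 3.13 in Gfi1cre/+. All Gfi1cre/+ values fell within the Gfi1+/+ range, and the log2 ratio differed by 0.01 (exact permutation test, two-sided, p = 0.9). Per kilobase of exon union the ratio of Gjb2 to Gjb6 was 3.38 ± 0.261 and 3.40 ± 0.0903 (SD, n = 3 each).

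The ratio of Gjb2 to Gjc1 had the widest difference between the genotypes. It was 96.5, 77.1 and 103 in Gfi1+/+ and 111, 104 and 102 in Gfi1cre/+, a log2 difference of 0.21 (exact permutation test, two-sided, p = 0.2). Gfi1+/+ replicate 3 lay within the Gfi1cre/+ range, so the groups overlapped. The remaining pairs differed by 0.05 to 0.20 with exact permutation p-values from 0.3 to 1, and every adjusted p over the 10 pairs was 1 in the exact permutation tests. Because an exact permutation of 3 against 3 libraries cannot go below p = 0.1, no pair could have passed a threshold of 0.05.

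The 5 genes varied between libraries in more than one pattern. Gjb2 and Gjb6 moved together, with Pearson's r = 0.80 (exact permutation p = 0.05, adjusted 0.25 over 10 pairs) and Spearman's rho = 0.77 (exact permutation p = 0.103, adjusted 0.514) over the 6 libraries. Without the 2 libraries farthest from the median of Gjb2, Gfi1+/+ replicates 1 and 2, r was 0.67. Without Gfi1+/+ replicate 1 alone it was 0.90. Gjc3 and Gjc1 had r = 0.83 (exact permutation p = 0.0347, adjusted 0.25) and rho = 0.77, but r was 0.05 without Gfi1+/+ replicates 1 and 2, so that relation rests on those samples. Without Gfi1+/+ replicate 1 alone r was 0.78 for Gjc3 and Gjc1. With adjustment neither pair passed 0.05. The remaining 8 pairs had r between -0.69 and 0.35, and none had an adjusted p-value under 0.05 (exact permutation tests).

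The genes whose levels followed each connexin most closely were other genes than connexins. They were picked as the highest Pearson's r over 6 libraries among 10365 genes averaging 200 or more normalized reads, so the values describe these libraries only. For Gjb2 they were Pdxk, a vitamin B6 kinase (r = 0.992), Wnk2, a kinase that regulates ion transport (0.992), and Esyt2, a membrane contact protein (0.991), and Gjb6 came at place 1383. For Gjb6 they were Isyna1, an inositol synthesis enzyme (0.993), S100b, a calcium-binding protein of glia and other cells (0.990), and Pde6d (0.989), and Gjb2 came at place 540. Gja1 was followed by Ddx20 (0.991), the tropomyosin gene Tpm2 (0.990) and the adenylyl cyclase gene Adcy5 (0.980). Gjc1 was followed by Gper1 (0.984), Ebf4 (0.983) and Fbxo17 (0.944), and Gjc3 by Tmem47 (0.991), Mettl13 (0.980) and Tead2 (0.980), a partner of the Hippo pathway. Gjc3 held place 116 for Gjc1 and Gjc1 held place 160 for Gjc3.

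Of 15 other connexin genes looked for, 4 had values, of which 3 are described, and the remaining 11 were not analysed here. Gjd2, the connexin gene of electrical synapses between neurons, was counted at 69.1, 14.7 and 16.9 normalized reads in Gfi1+/+ and 6.09, 4.44 and 10.4 in Gfi1cre/+. Gjb1, an X-linked connexin gene of Schwann cells and oligodendrocytes, was counted at 90.1, 33.5 and 31.6 in Gfi1+/+ and 26.98, 16.9 and 31.1 in Gfi1cre/+. In both, Gfi1+/+ replicate 1 was far above the other libraries.

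For Gjd2 the log2 fold change was -1.83 (95% confidence interval -3.33 to -0.33), with an unadjusted p of 0.0222 and an adjusted p of 0.999 in limma. It was -1.14 without Gfi1+/+ replicate 1 (-2.30 to 0.02). For Gjb1 it was -0.89 (-1.85 to 0.07) and -0.41 without that library. The ranges of the genotypes did not overlap for Gjd2 and for Gjb1, as in 7.52% of all genes tested. The nearest Gjb1 values were 31.6 in Gfi1+/+ replicate 3 and 31.1 in Gfi1cre/+ replicate 3, from 30 and 33 reads. Gjd2 had 5 to 56 reads per library, with a counting error of 13.4% to 44.7%. Gjb1 had 19 to 73 reads, with a counting error of 11.7% to 22.9%. Gja4 leaned the opposite way, with 163, 215 and 231 normalized reads in Gfi1+/+ and 224, 239 and 250 in Gfi1cre/+ (log2 fold change 0.24, -0.06 to 0.54). It was 0.09 without Gfi1+/+ replicate 1, where it was lowest.

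**Figure D3:**
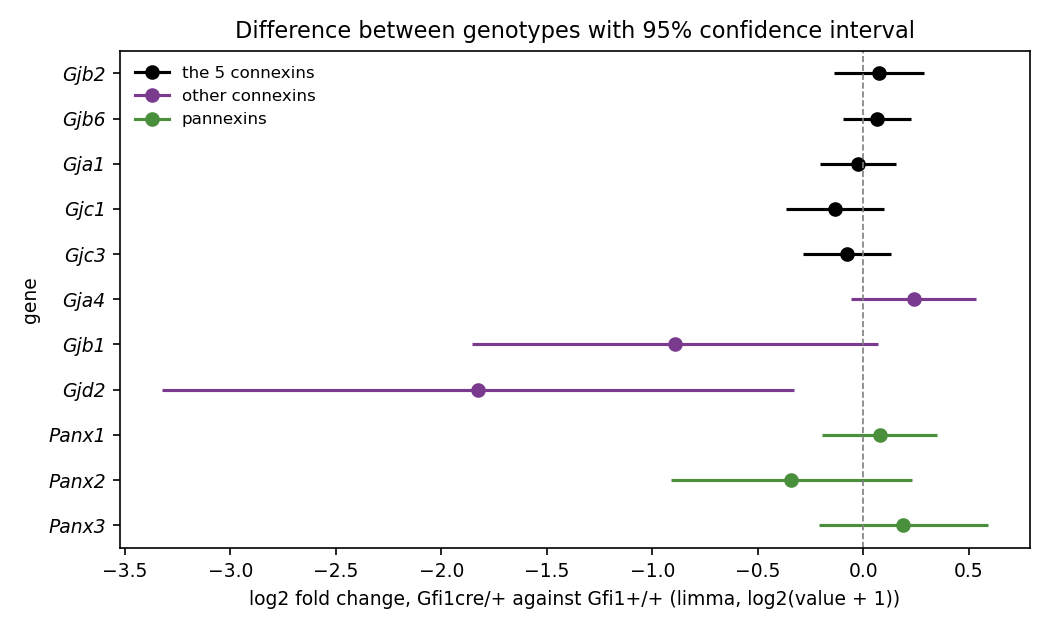
Log2 fold change of Gfi1cre/+ against Gfi1+/+ with the 95% confidence interval from limma (3 libraries each) for the 5 connexins, 3 other connexins and the 3 pannexins. The intervals of the 5 all cover 0 and are narrow, from -0.37 to 0.29 at their ends, whereas that of Gjd2 runs from -3.33 to -0.33.

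Gfi1+/+ replicate 1 was also high in transcripts of myelin and neurons. Mbp, a myelin basic protein gene, was counted at 18871 normalized reads there and at 2508 to 4216 in the other 5 libraries, and Mag, a myelin glycoprotein gene, at 1322 against 126 to 232. Nefm, a neurofilament gene, was counted at 3449 against 178 to 712. These genes were singled out after their values had been seen. The 5 connexins did not follow them: in this library Gjb2, Gjb6, Gjc1 and Gjc3 were between 0.03 and 0.16 below their mean of 6 libraries on the log2 scale and Gja1 was 0.08 above it, whereas Gjd2 was 2.29 above and Gjb1 1.41 above. The part of the other cells in the fold changes was not tested beyond leaving the library out.

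**Figure D4:**
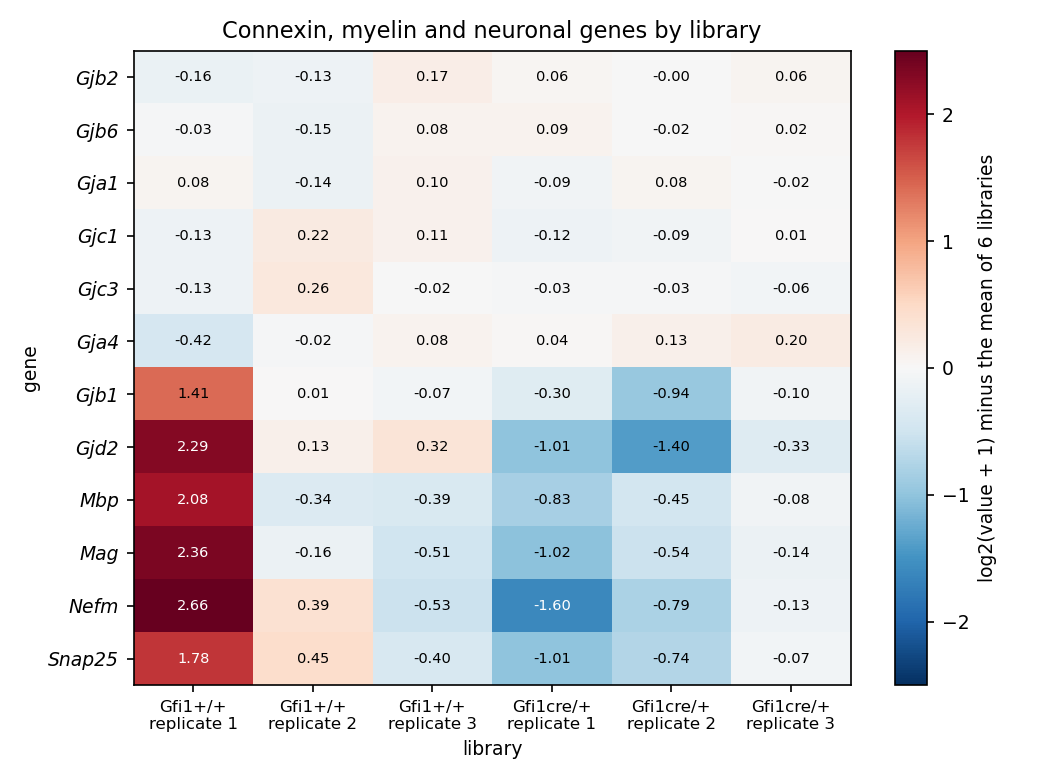
Difference of log2(value + 1) from the gene's mean of 6 libraries, for 8 connexin genes, 2 myelin genes (Mbp, Mag) and 2 neuronal genes (Nefm, Snap25), with red above and blue below the mean. Gfi1+/+ replicate 1 is red for Gjb1, Gjd2, Mbp, Mag, Nefm and Snap25 (1.41 to 2.66), while the 5 connexins at the top stay between -0.16 and 0.26 in every library.

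The pannexins, which form connexin-like channels of single membranes, were all 3 listed. Panx3, known from bone and cartilage, was the highest, at 880, 762 and 1370 normalized reads in Gfi1+/+ and 1084, 1088 and 1161 in Gfi1cre/+ (log2 fold change 0.19, 95% confidence interval -0.21 to 0.59). Panx1 and Panx2 had fold changes of 0.08 and -0.34, and none of the 3 passed an unadjusted p-value of 0.05. Without Gfi1+/+ replicate 3, Panx3 alone of them passed the adjusted threshold (0.44, adjusted p = 0.0470, limma with Benjamini-Hochberg).

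Of 18 genes for proteins that bind connexins, carry them to the membrane or join the same junctions, 0 passed at either p-value. Their median log2 fold change was 0.02, and 3.04% of all genes tested had an unadjusted p under 0.05 in limma. Without Gfi1+/+ replicate 3 an unadjusted p under 0.05 was reached by 2 of 18, beside 16.2% of all genes. With all 6 libraries the lowest p-value was that of Csnk1d, a kinase of the Gja1 protein, with a log2 fold change of 0.10. The cadherin genes Cdh2 and Cdh1 came next, with log2 fold changes of 0.12 and 0.07. Of 16 genes of potassium recycling, the process in which cochlear gap junctions are held to act, 14 had a positive fold change, beside 49.9% of all genes tested, and the median was 0.07. No test was made of that count. The marker lists described below leaned both ways. Fold changes were positive in 16 of 16 erythroid, 12 of 13 bone and cartilage, 12 of 15 endothelial and mural and 7 of 11 fibrocyte genes. They were positive in 6 of 17 supporting cell, 6 of 14 glia, 3 of 16 hair cell and 0 of 14 neuron genes. Slc26a4, the pendrin anion exchanger gene, with 0.22 (95% confidence interval 0.02 to 0.41), and Kcne1, a subunit of the strial potassium channel, with 0.13 (0.00 to 0.26), had an unadjusted p under 0.05 (0.0331 and 0.0452 in limma). Neither passed after adjustment, and 3.04% of all genes tested had such an unadjusted p. The count at an unadjusted p under 0.05 went from 2 to 8 of 16 without Gfi1+/+ replicate 3, where 16.2% of all genes had such a p. It went to 0 without Gfi1+/+ replicate 1, where 2.10% of all genes did. Kcnq1, the other subunit of that channel, had 0.09 (-0.02 to 0.21).

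Markers of the cells that carry the connexins were present in every library. Supporting cell markers were listed for 17 of 18 genes, with 119480 to 130414 summed normalized reads in Gfi1+/+ and 122644 to 125200 in Gfi1cre/+. Spiral ligament fibrocyte markers were listed for all 11, with 225600 to 257171 and 218218 to 257756. In both lists 0 genes had an unadjusted p under 0.05 in limma, beside 3.04% of all genes tested. Without Gfi1+/+ replicate 3 the counts were 3 supporting cell and 5 fibrocyte genes, beside 16.2% of all genes. With all 6 libraries the median log2 fold changes were -0.01 and 0.05. Coch, a fibrocyte matrix protein, had the lowest p of the latter list, with 0.32 (95% confidence interval -0.07 to 0.71), and Cyp26b1 of the former, with -0.28 (-0.70 to 0.13). A few abundant genes carried most of the sums. In Gfi1+/+ replicate 1 Sparcl1 and Epyc had 57193 and 31674 normalized reads, and the fibrocyte markers Car3 and Otor had 88448 and 65141. The sums therefore do not show how single markers varied. Coch ran from 9245 to 16264 within Gfi1+/+, and Cyp26b1 from 575 to 1007.

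Lists for other cells of the sample gave the following counts. Over all genes tested, 3.04% had an unadjusted p under 0.05 with all 6 libraries (limma). Spiral ganglion neuron markers were lower at an unadjusted p under 0.05 in 7 of 14 genes, with a median log2 fold change of -0.85, and without Gfi1+/+ replicate 1 in 2 genes, with a median of -0.31. Their sum was 6164 to 14699 normalized reads in Gfi1+/+ and 5619 to 6481 in Gfi1cre/+. Erythroid markers were higher at that level in 10 of 16 genes, or 4 without Gfi1+/+ replicate 1, with a median of 0.62 and sums of 31863 to 46431 and 40845 to 68794. Schwann and satellite glia markers had 0 of 14 with a median of -0.10 and sums of 45374 to 70373 and 50331 to 59860. Endothelial and mural cell markers had 2 of 15 higher with a median of 0.10, and bone and cartilage markers 2 of 13 higher with a median of 0.22. Hair cell markers had 1 of 16, Pvalb, a calcium buffer gene, at -0.47, and a median of -0.12. Without Gfi1+/+ replicate 3 the counts at an unadjusted p under 0.05 were 10 of 14 for neurons, 10 of 16 for erythroid cells, 8 of 14 for glia, 6 of 15 for endothelial and mural cells, 9 of 13 for bone and cartilage and 4 of 16 for hair cells. In that fit 16.2% of all genes had such a p. Without Gfi1+/+ replicate 1 the glia, endothelial and bone counts were 0, and 2.10% of all genes had such a p. With all 6 libraries no marker in these lists passed the adjusted threshold in limma, whereas 3 bone and cartilage markers did without Gfi1+/+ replicate 3, and their part in the connexin values was not tested.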

How the data were processed

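RNA-seq of cochlear ducts at P8 gave 6 libraries. The authors aligned the reads to mm10 with TopHat, counted uniquely mapped reads on genes with HTSeq and left out genes with fewer than 40 reads. Versions, annotation and strand setting are not given in the sources used here. The deposited values are a signal per gene and library, for which the methods name quantile normalization. The columns did not share their quantiles, and 100% of values were whole reads (within 0.1) divided by 1 factor per library, from 0.810 to 1.15. Recovered reads on genes ran from 13603908 to 19359753 per library, so a count of 0 allows up to 3 reads, or 2.61 to 3.70 normalized reads (counting error only).

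The deposited values were tested with limma 3.58.1 in R 4.3.3 for 14455 genes that reached 40 normalized reads in any library. The scale was log2(value + 1), the model held genotype alone, and the settings were eBayes with a trend, two-sided, and Benjamini-Hochberg adjustment over all genes tested. Libraries were separate biological samples of each genotype. Log2 ratios were compared by exact permutation over libraries. Positions, lengths and coding sequences came from GENCODE vM21, in which 14791 of 14865 identifiers were found, and upstream windows from RefSeq. Alternatives were other pseudocounts (0.1 and 10), no filter or a mean of at least 200, no trend, quantile and TMM scaling, edgeR 4.0.16 and DESeq2 1.42.0 on the recovered reads, a replicate block, other gene lengths and each library left out. Scaling by total reads and the longest protein-coding transcript were added after the values had been seen. The steps were tested on simulated data.

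The members and lists were chosen with earlier results of these data known. Genes named are the 5 connexins, the other listed connexins and pannexins (1 connexin is not reported here), in each list the 3 genes with the lowest p and the 2 most abundant markers, of which some are given, the 3 genes most like each connexin, and genes on which a result turns.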

Additional observations from a re-analysis of the deposited data

How the results depend on the processing

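The fold changes of the 5 connexins were computed under 85 alternatives in all, of which 81 kept the direction and stayed short of the adjusted threshold, and the lowest adjusted p-value was 0.156. The alternatives that kept all 6 libraries gave 0.03 to 0.08 for Gjb2, 0.05 to 0.07 for Gjb6, -0.025 to -0.019 for Gja1, -0.14 to -0.10 for Gjc1 and -0.09 to -0.07 for Gjc3. Leaving out 1 library gave 0.015 to 0.18, 0.0093 to 0.12, -0.099 to 0.020, -0.23 to -0.054 and -0.16 to 0.034 in the same order. The 4 reversals were those of Gja1 and Gjc3. With 1 library left out, the difference in log2 ratio ran from -0.052 to 0.059 for Gjb2/Gjb6, from -0.0027 to 0.28 for Gjb2/Gjc3, from -0.025 to 0.22 for Gjb6/Gjc3, from -0.13 to 0.17 for Gja1/Gjc3 and from -0.045 to 0.24 for Gja1/Gjc1. Under the longest and the longest protein-coding transcript, the Gfi1+/+ level per kilobase moved to 3818 (both) for Gjb6, to 217 and 265 for Gja1 and to 78.5 and 116 for Gjc1, through the shorter length alone.

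The count of genes passing the adjusted threshold was 4, 0 for genes averaging 200 or more normalized reads (229 at an unadjusted p under 0.05 in limma, 531 in edgeR without that minimum), 10 in DESeq2, and 0 (without Gfi1cre/+ replicate 3, where 248 had an unadjusted p under 0.05) to 48 (without Gfi1+/+ replicate 3) with 1 library left out. The 4 Y-linked genes each averaged under 200 normalized reads, so the fit with that minimum left them out before testing. The cause of the other changes in the count was not tested. Among other genes, leaving out 1 library gave -0.070 to 0.064 for Epyc, -0.054 to 0.17 for Col2a1, -0.015 to 0.22 for Pdgfrb, -0.31 to 0.056 for Otor and -0.14 to 0.086 for Car3, and quantile normalization gave 0.014 for Car3.

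Replicate numbers are shared by the genotypes but mark no shared animal, and the deviations of same-numbered libraries correlated at -0.09, 0.11 and -0.03. With the replicate number as a block the count was again 4, the Gjb2 fold change was 0.08 and no call changed. With 3 libraries a genotype, single mice against pools of 3, and 188 to 284 reads for Gjc1, differences smaller than the intervals given were not detectable.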
